A study of Mus musculus with 15 samples.

Results

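The 44 genes described here encode the machinery that copies DNA in the S phase, from the loading of the replicative helicase at origins to the supply of nucleotides and the assembly of chromatin behind the fork. A gene was measured when a probe set carried its symbol and no other, and where a gene had several such probe sets, the brightest one on average was taken. In this way 40 of the 44 genes were measured, out of 18820 genes on the array, and all 40 had a mean above the background. Gins2, Rfc4, Tyms and Ccne2 lie only on probe sets that carry a further symbol and are not reported. The cells were monolayers of epithelial cells grown from organoids of the duodenum of wild type C57BL/6J mice, which were females of 9 weeks. They were exposed for 6 h to the soluble fraction of casein of cow's milk (CAS), the meal of soybeans (SBM), plasma protein of pigs dried by spraying (SDPP) or mealworm (YMW), each at 4% w/v, or to DMEM alone as the medium control (MC). The methods also give a mass concentration that is far below 4% w/v, and which of them applied is not settled here. All 5 groups carried the same genotype and grew in the same medium with Wnt and R-spondin, EGF and Noggin, which keeps crypt cells cycling, and such organoids are grown from epithelial cells without stroma. Each sample pooled 3 wells. Their RNA was read on Affymetrix mouse gene 1.1 ST arrays, with 3 for each group and 15 in all, and values are log2 intensities after normalization by the authors. The labels do not tie the replicate numbers to animals, so the p-values measure the spread between these samples.

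Before the S phase, the origin recognition complex with Cdc6 and Cdt1 loads the ring of Mcm proteins onto DNA, and Cdc45 and the GINS complex turn it into a running helicase. Polymerase alpha with primase lays down primers, polymerase epsilon extends the leading strand and polymerase delta the lagging strand, held on DNA by the sliding clamp Pcna. In the intestine, this machinery belongs to the stem and transit-amplifying cells of the crypt and is shut down as cells differentiate, and many of its genes are targets of E2F transcription factors at the step from G1 to S.

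The promoters of these genes held the letters of the E2F site in a larger share than all promoters did. In RefSeq promoters of mouse build GRCm38.p6, which reach from 250 bases before to 50 bases after each gene's start, 36 of the 44 genes had an entry. TTTCCCGC, TTTCGCGC, TTTGCCGC or TTTGGCGC stood on either strand in 14 of these 36 (38.89%), against 704 of all 27025 genes (2.605%). At least 2 such matches stood in 5 of the 36 (13.89%), against 0.1073% of all genes, and in 2 of these promoters matches overlapped each other. The shorter CCAAT motif stood in 21 of the 36 (58.33%), against 41.06% of all genes, and in 1 promoter an E2F match overlapped a CCAAT match. A match is a description of the letters and no evidence of binding, and the promoters of Pole, Gins1 and Rfc2 were not among the entries. The promoter of Tk1 was among them and held neither motif. The stretches below hold the matches of 4 genes, in lower case with the E2F letters in capitals, read along the strand of the gene. Uhrf1 and Cdt1 were taken by the rule for named genes, and Mcm5 and Mcm6 were chosen after their matches were seen, because pairs of matches there overlap on opposite strands. They lie at chr17:56304081-56304180 (plus strand, Uhrf1), chr8:122568035-122568064 (plus strand, Cdt1), chr8:75109311-75109410 (plus strand, Mcm5) and chr1:128359731-128359830 (minus strand, Mcm6) of GRCm38.p6.
Uhrf1: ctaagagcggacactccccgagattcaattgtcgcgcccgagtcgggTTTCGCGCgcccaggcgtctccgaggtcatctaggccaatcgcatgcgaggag
Cdt1: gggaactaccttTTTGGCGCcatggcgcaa
Mcm5: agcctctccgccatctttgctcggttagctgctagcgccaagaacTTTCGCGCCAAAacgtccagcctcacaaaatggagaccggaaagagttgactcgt
Mcm6: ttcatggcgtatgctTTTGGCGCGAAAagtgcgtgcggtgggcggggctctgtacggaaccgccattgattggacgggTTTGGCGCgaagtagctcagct
The single match of Uhrf1 begins 185 bases before the start used in its entry, and that of Cdt1 at base 33 after its own start. A further promoter entry of Uhrf1 (chr17:56303087-56303386) held no E2F match. In Mcm6, the first run of capitals in the stretch joins a match on the gene's strand with one on the other strand, and a further match follows nearer to the start.

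The MC arrays did not form a tight group for these genes. Replicate 1 was the highest of the MC arrays in 38 of the 40 genes and replicate 3 the lowest in 39. The order of replicate 1 over 2 over 3 held in 38 genes, and in 26% of all genes. The mean log2 intensity of the 40 genes was 7.91, 7.51 and 7.14 in MC replicates 1, 2 and 3, and it lay between 7.53 and 7.98 on the 12 treated arrays. Replicate 1 thus lay within the treated arrays, and replicates 2 and 3 below all of them. By gene, replicate 3 was lower than every treated array in 31 of the 40, replicate 2 in 14 and replicate 1 in none. The SD of a gene over 3 arrays had a median of 0.39 in the MC, against 0.18 in CAS, 0.17 in SBM, 0.23 in SDPP and 0.16 in YMW arrays. In 34 of the 40 genes, the SD of the MC was larger than that of each source. For the SDs and for the counts below every treated array, no share over all genes is given. They are therefore not read as particular to the replication genes. The fit takes 1 variance per gene for all groups, so the SE of a comparison with the MC is too small for genes whose MC arrays spread more widely than those of the sources. This does not hold for every gene, since Rrm2 had an SD of 0.09 in the MC and 0.14 to 0.28 in the sources. The results against the MC are therefore also given without replicate 1, the array nearest to the treated ones. That array was singled out by its values on these genes, so differences against replicates 2 and 3 are larger, and those against replicate 1 alone smaller, in part by that choice, and both are given as a description.

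**Figure D1:**
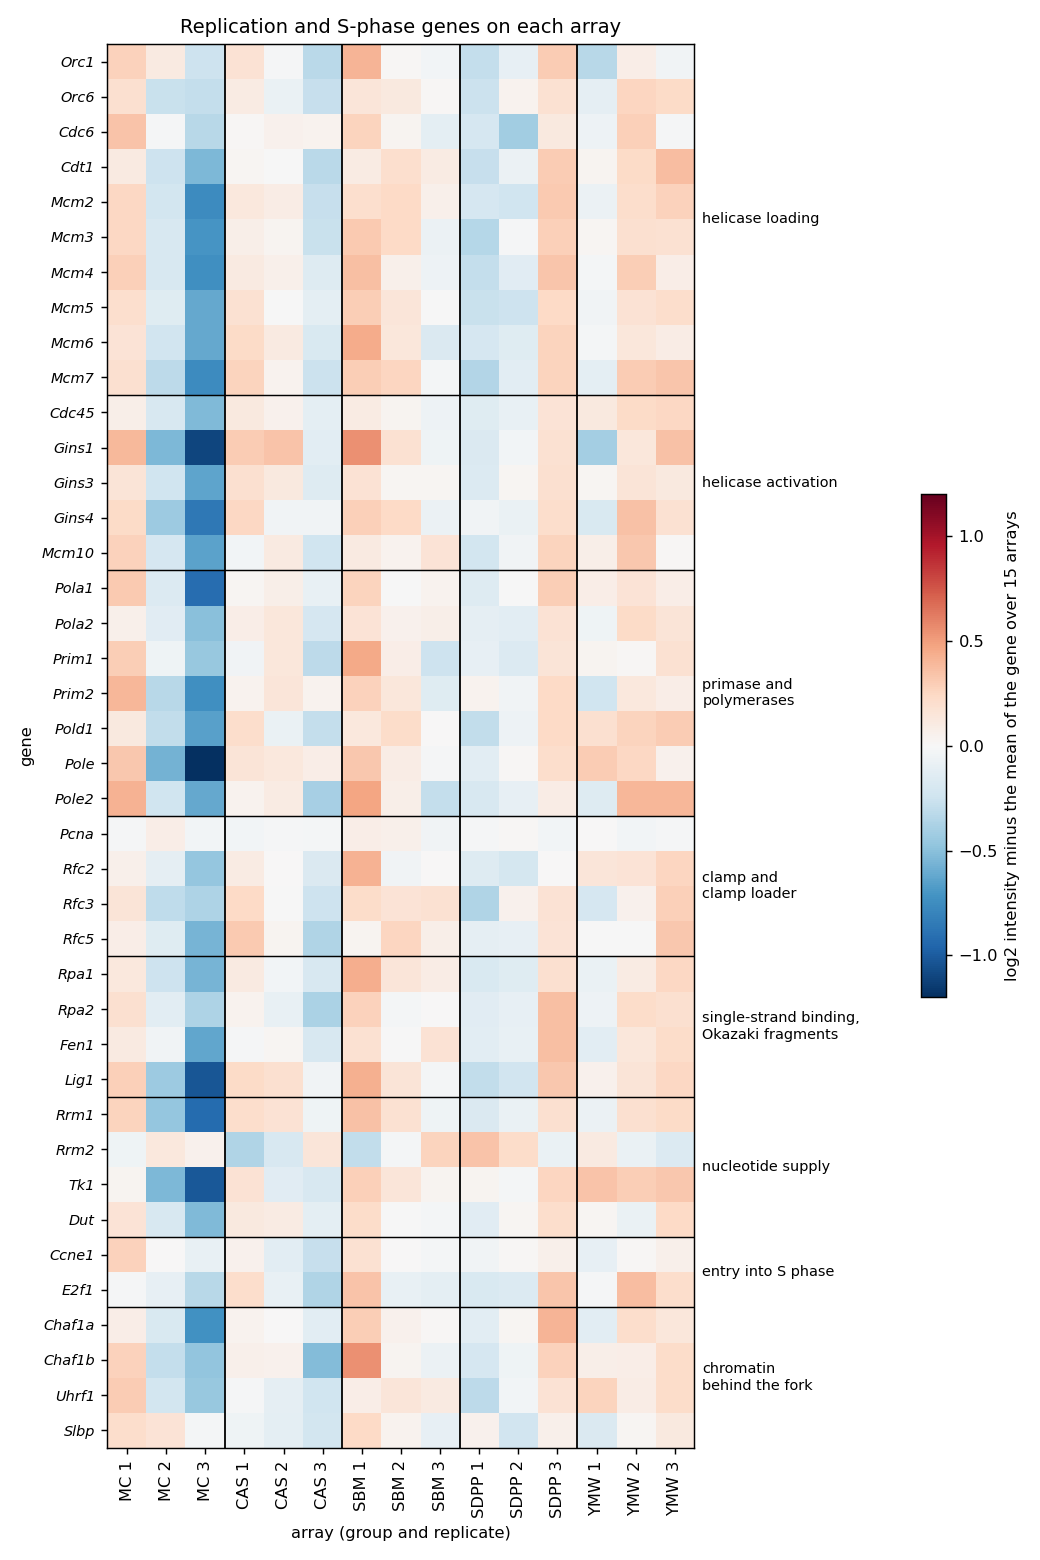
Log2 intensity of the 40 genes (rows, grouped by role) on the 15 arrays (columns), as the difference from the mean of each gene. MC replicate 3 is the lowest of all arrays in 31 rows, MC replicate 1 resembles the treated arrays, and the rows of Pcna and Rrm2 differ from the others.

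Most replication genes had higher means with every source than in the MC, and few passed the study's threshold, which asks for a fold change of 1.5 or more with an unadjusted p under 0.05. The log2 fold change was above 0 in 33 (CAS), 37 (SBM), 35 (SDPP) and 35 (YMW) of the 40 genes, while it was above 0 in 49.35%, 47.82%, 50.88% and 54.81% of all genes. The median over the 40 genes was 0.19, 0.32, 0.19 and 0.32, and that of all genes lay between −0.01 and 0.02. Past the threshold and higher were 1 gene with CAS (Pole), 3 with SBM (Tk1, Gins1 and Pole), 1 with SDPP (Tk1) and 2 with YMW (Tk1 and Pole), from limma with unadjusted p. As a background, 1.82%, 1.37%, 1.13% and 1.74% of all genes were higher at this threshold in the same order of sources. Each of these shares comes to less than 1 of 40 genes. The counts differ from this background by a few genes at most, and the genes vary together, so nothing is read from them. No replication gene passed as lower, where 2.04%, 2.14%, 0.499% and 2.13% of all genes did. None passed a Benjamini-Hochberg adjusted p of 0.05 in limma, which 0.654%, 0.00531%, 0% and 0.00531% of all genes did, while 3, 10, 1 and 10 had an unadjusted p under 0.05, all of them higher. For the mean of the 4 sources against the MC, Tk1 (0.64, SE 0.15) and Pole (0.61, SE 0.20) passed, against a background of 1.45%. All 4 comparisons use the same 3 MC arrays, so they are not independent of each other. In a monolayer measured as a whole, fewer cycling cells and less RNA of these genes per cell cannot be told apart.

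Tk1, the thymidine kinase that salvages thymidine for DNA synthesis, had the largest log2 fold change with SBM, SDPP and YMW, whereas with CAS those of Pole, Gins1, Lig1 and Rrm1 were larger. When MC replicate 1 was left out, Pole exceeded Tk1 with CAS, SBM and SDPP. The log2 intensity of Tk1 (probe set 10393431) was 8.32, 7.75 and 7.27 in MC replicates 1, 2 and 3. With CAS it was 8.47, 8.15 and 8.10, with SBM 8.57, 8.44 and 8.32, with SDPP 8.32, 8.27 and 8.55, and with YMW 8.63, 8.59 and 8.61. The YMW arrays lay close together and above all MC arrays, whereas MC replicate 1 lay within the CAS and SDPP arrays and level with the lowest SBM array. The log2 fold change was 0.83 with YMW (1.78-fold, SE 0.19, adjusted p = 0.0876 from limma), 0.66 with SBM (adjusted p = 0.164), 0.60 with SDPP (adjusted p = 0.348) and 0.46 with CAS (adjusted p = 0.246). Against MC replicates 2 and 3 it was 1.101 with YMW, 0.93 with SBM, 0.87 with SDPP and 0.73 with CAS. Set against MC replicate 1 alone, it was 0.29, 0.12, 0.06 and −0.08. A second probe set of Tk1 gave the same order of YMW and CAS at the ends, with 0.60 and 0.34, and 0.42 with SBM and 0.44 with SDPP.

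Pole encodes the catalytic subunit of polymerase epsilon, which copies the leading strand. Its log2 intensity (probe set 10524169) was 7.88, 6.99 and 6.35 in the MC, a range wider than that of all treated arrays, which lay between 7.44 and 7.89. The values were 7.72, 7.68 and 7.64 with CAS, 7.89, 7.65 and 7.54 with SBM, 7.44, 7.57 and 7.78 with SDPP and 7.87, 7.81 and 7.61 with YMW. MC replicates 2 and 3 were below every treated array and MC replicate 1 was above all but SBM replicate 1. The log2 fold changes for CAS, SBM, SDPP and YMW were 0.61, 0.62, 0.52 and 0.69 (SE 0.26, adjusted p = 0.252, 0.231, 0.429 and 0.178 from limma). Without MC replicate 1 these values were 1.01, 1.02, 0.92 and 1.09, and against that array alone they were −0.20, −0.19, −0.29 and −0.12.

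Gins1, a subunit of the GINS complex that joins Cdc45 and the Mcm ring in the running helicase, passed with SBM alone. Its log2 intensity (probe set 10476989) was 6.86, 5.93 and 5.37 in the MC. It was 6.77, 6.81 and 6.34 with CAS, 7.02, 6.65 and 6.42 with SBM, 6.29, 6.44 and 6.65 with SDPP and 6.06, 6.60 and 6.82 with YMW. MC replicate 1 lay above every array except SBM replicate 1, and MC replicates 2 and 3 lay below all treated arrays. The log2 fold change with SBM was 0.64 (SE 0.30, unadjusted p = 0.0486, adjusted p = 0.271 from limma). With CAS it was 0.59, past the fold but with an unadjusted p = 0.0690 from limma. Gins1 with SBM was close to the threshold and did not pass with the replicate number as a block, in a fit of SBM and MC alone, among genes above background alone, or without MC replicate 2 or 3, SBM replicate 1 or 2, YMW replicate 2 or any 1 of the CAS or SDPP arrays. Without MC replicate 1 the log2 fold change was 1.05 with SBM, and against that array alone −0.16. No test showed that SBM and CAS differed for this gene.

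**Figure D2:**
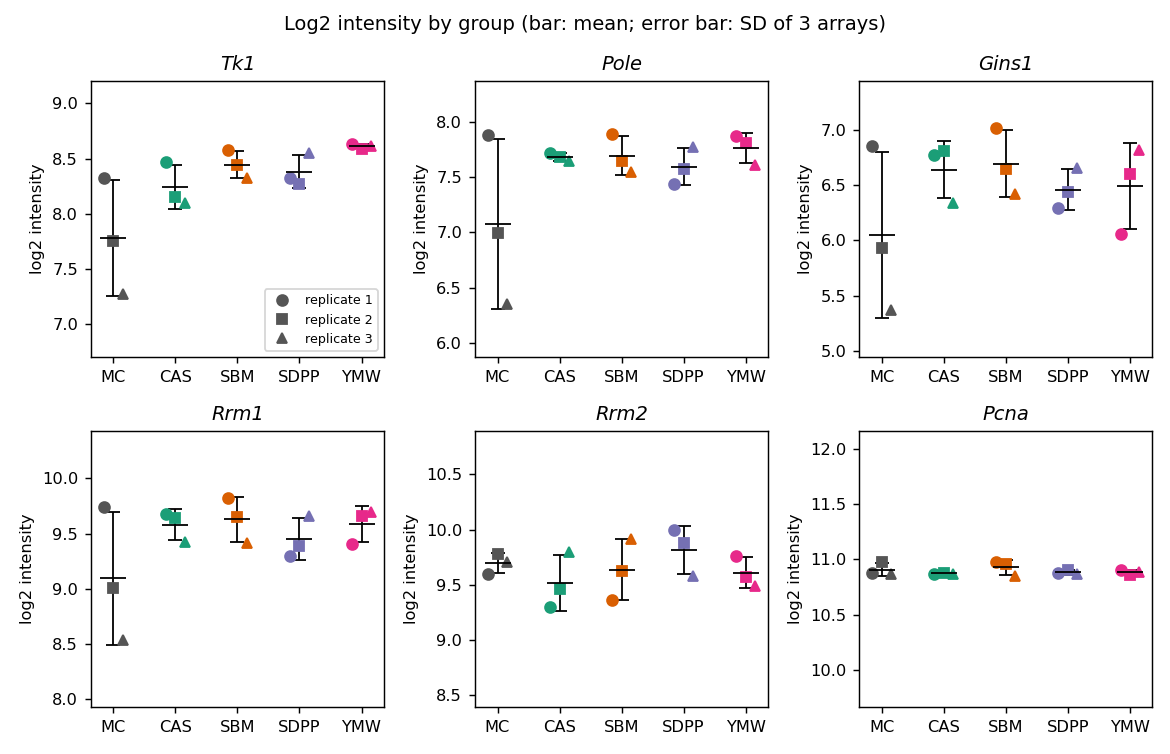
Log2 intensity of 6 genes in each group, with a point per array, the mean as a bar and the SD of 3 arrays as the error bar, on axes of equal height. Tk1, Pole, Gins1 and Rrm1 have a wide MC group whose replicate 1 lies at or near the level of the treated arrays, whereas Rrm2 and Pcna have a narrow one.

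The calls depended on which MC arrays were used. Against MC replicates 2 and 3, the genes that passed as higher numbered 7, 14, 8 and 12, where 4.59%, 4.5%, 3.89% and 4.93% of all genes did. The array left out was singled out on the replication genes and not on all genes, so nothing is read from the difference of these shares. Pole, Gins1, Lig1, Rrm1, Tk1, Gins4 and Prim2 made up the 7 genes with CAS. The largest log2 fold changes in this comparison were 1.101 for Tk1 and 1.09 for Pole, both with YMW. Against MC replicate 1 alone, where the control is 1 array that is assumed to vary like the other groups, no replication gene passed with any source. Then 0, 13, 5 and 10 of 40 genes had a log2 fold change above 0. The median was then −0.18, −0.09, −0.23 and −0.10. Without MC replicate 3, 0 genes passed with each source in limma, and the medians were −0.02, 0.12, 0.01 and 0.12. Without MC replicate 2, 0, 1, 0 and 2 genes passed. The 3 arrays of a source lay above all 3 MC arrays in 0 of 40 genes with CAS, 1 with SBM (Rfc3), 0 with SDPP and 4 with YMW (Cdc45, Pold1, Rfc2 and Tk1). Among all genes this held for 5.65%, 4.97%, 4.87% and 7.42%.

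**Figure D3:**
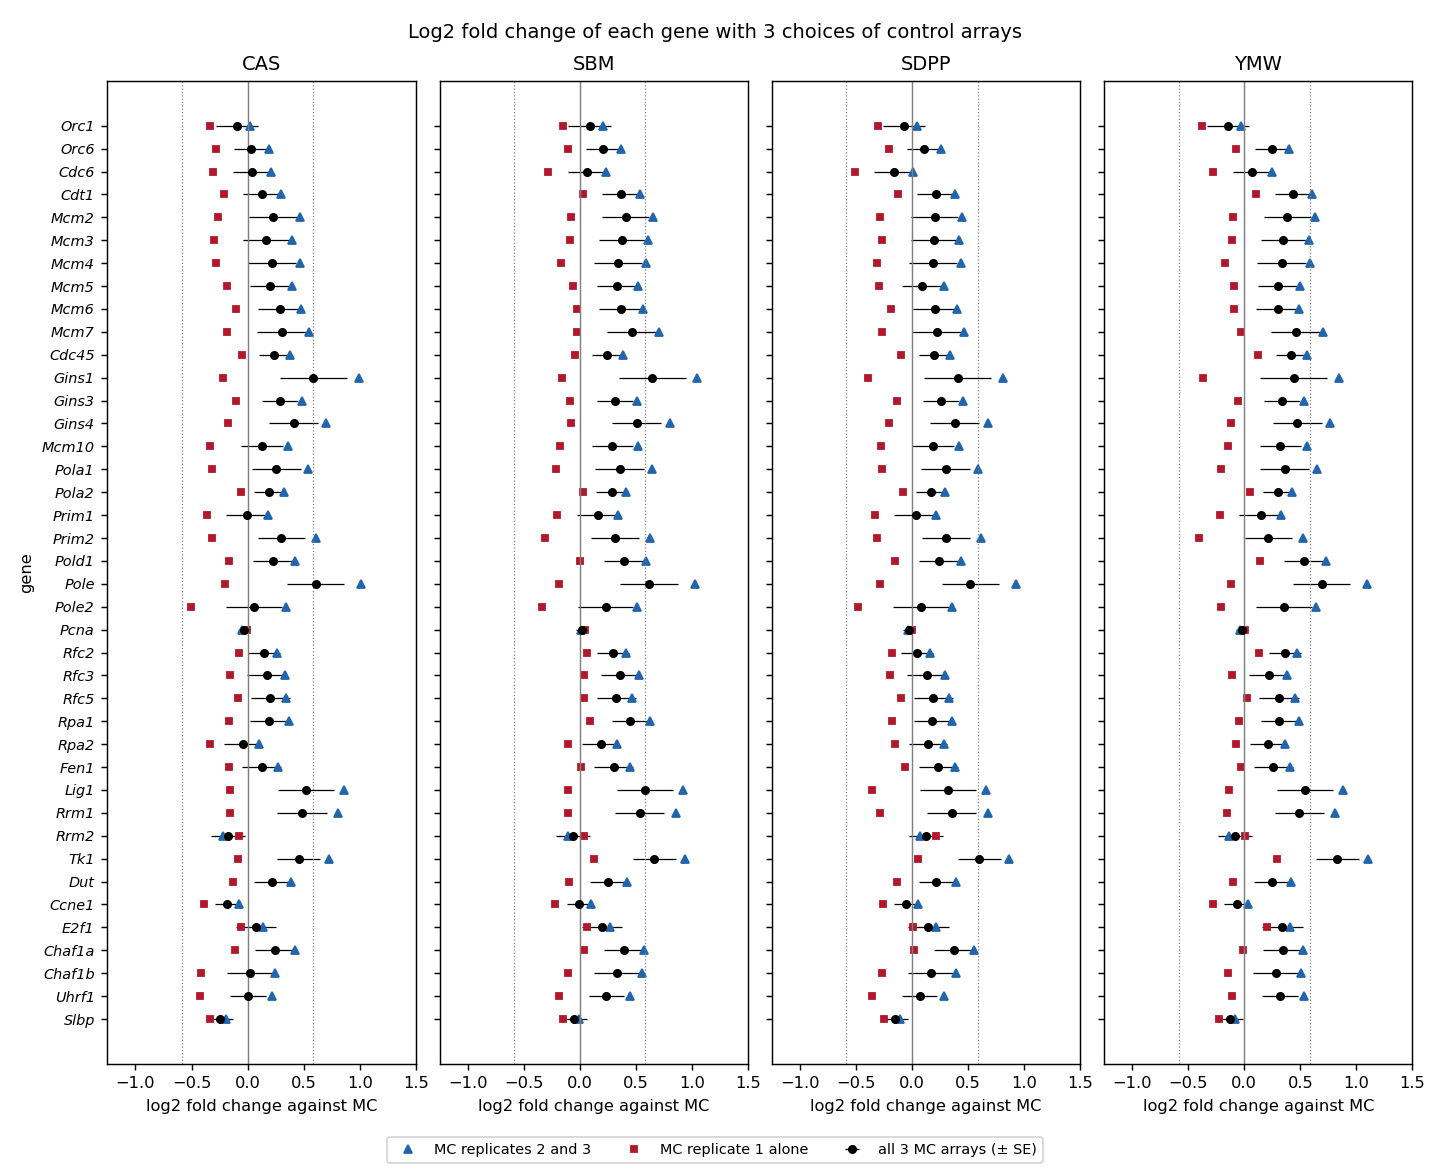
Log2 fold change of each of the 40 genes with the 4 sources (panels), against all 3 MC arrays (black, with SE), MC replicates 2 and 3 (blue triangles) or MC replicate 1 alone (red squares). Dotted lines mark a fold change of 1.5. The red squares lie below 0 for all 40 genes with CAS and for most genes with the other sources.

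Among the genes that load the helicase, none passed the study's threshold. The log2 fold changes of Mcm2 to Mcm7 lay between 0.16 and 0.30 with CAS, 0.33 and 0.46 with SBM, 0.09 and 0.22 with SDPP and 0.30 and 0.46 with YMW. Mcm7, a subunit of the ring, had the largest differences of this role, with log2 fold changes, in the order CAS, SBM, SDPP, YMW used from here on, of 0.30, 0.46, 0.22 and 0.46 (SE 0.22). In log2 intensity it was 9.11, 8.61 and 8.16 in the MC and between 8.56 and 9.25 on the treated arrays, so MC replicate 3 alone was below them. Cdt1, which brings the ring to the origin, was at 8.31, 7.95 and 7.66 in the MC. It had 8.31, 8.41 and 8.31 with SBM and 8.24, 8.43 and 8.57 with YMW, and 8.22, 8.20 and 7.88 with CAS and 7.93, 8.14 and 8.50 with SDPP. Its log2 fold change was 0.37 with SBM and 0.44 with YMW (SE 0.17), under the study's fold with unadjusted p = 0.0452 and 0.0195 from limma. Orc1, the largest subunit of the origin recognition complex, had −0.10, 0.09, −0.07 and −0.14 (SE 0.19), and Cdc6 had 0.04, 0.06, −0.16 and 0.07 (SE 0.17). Orc6, a further subunit, had 0.03, 0.21, 0.11 and 0.24 (SE 0.15). Set against MC replicates 2 and 3, Mcm7 had 0.55, 0.71, 0.46 and 0.70, Cdt1 0.30, 0.53, 0.38 and 0.61, Orc1 0.02, 0.20, 0.05 and −0.03, Orc6 0.19, 0.36, 0.26 and 0.40 and Cdc6 0.21, 0.24, 0.01 and 0.24. Against MC replicate 1 alone, Mcm7 had −0.18, −0.02, −0.27 and −0.02, so its direction turned.

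Of the genes that start the helicase, all 5 measured had log2 fold changes above 0 with every source. Gins4, a further GINS subunit, had 0.41, 0.51, 0.38 and 0.47 (SE 0.22) with CAS, SBM, SDPP and YMW. Mcm10, which acts when the helicase starts to unwind, had 0.13, 0.29, 0.19 and 0.32 (SE 0.19), the smallest mean of this role. Among primase and the polymerases, Prim1, the catalytic subunit of primase, had the smallest, with −0.00, 0.16, 0.03 and 0.15 (SE 0.19). Pold1, the catalytic subunit of polymerase delta, had 0.22, 0.39, 0.24 and 0.53 (SE 0.18), and its arrays with YMW lay above all MC arrays. Without MC replicate 1, Gins4 had 0.70, 0.80, 0.67 and 0.76, Mcm10 0.36, 0.52, 0.42 and 0.56, Prim1 0.18, 0.34, 0.22 and 0.33 and Pold1 0.42, 0.59, 0.44 and 0.73. Against MC replicate 1 alone, Gins4, Mcm10 and Prim1 were below 0 with every source, and Pold1 had 0.14 with YMW.

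Pcna, the sliding clamp, hardly varied on any array. Its log2 intensity was 10.88, 10.97 and 10.87 in the MC and lay between 10.85 and 10.98 on the treated arrays, so the groups overlapped fully. Its log2 fold changes lay between −0.03 and 0.02 (SE 0.05), and a second probe set gave −0.03 to 0.02. The 2 probe sets had nearly equal values, and whether they read separate sequences was not checked. Rfc5, a subunit of the complex that loads the clamp, had 0.20, 0.32, 0.19 and 0.31 (SE 0.18). Lig1, the ligase that joins Okazaki fragments, had 0.52, 0.58, 0.32 and 0.54 (SE 0.25), just under the fold of the threshold with SBM. Its MC arrays were at 8.37, 7.65 and 7.06, and the treated arrays lay between 7.79 and 8.51. MC replicates 2 and 3 were below them and MC replicate 1 was within their range. Rpa2, a subunit of the protein that coats single-stranded DNA, had −0.04, 0.19, 0.14 and 0.22 (SE 0.17). Against MC replicates 2 and 3, Lig1 had 0.86, 0.92, 0.66 and 0.88, Rfc5 0.34, 0.47, 0.33 and 0.45 and Rpa2 0.10, 0.33, 0.29 and 0.36, while Pcna stayed between −0.05 and 0.01. Against MC replicate 1 alone, Lig1 had −0.16, −0.10, −0.36 and −0.13.

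The genes of the 2 subunits of ribonucleotide reductase, the enzyme that makes deoxynucleotides, differed from each other. Rrm1, the large subunit, was at 9.74, 9.01 and 8.54 in the MC and between 9.30 and 9.82 on the treated arrays. Its log2 fold changes were 0.48, 0.53, 0.35 and 0.49 (SE 0.22), and MC replicates 2 and 3 lay below all treated arrays. Rrm2, the small subunit, which is made in the S phase, was at 9.60, 9.78 and 9.71 in the MC, within the treated range of 9.297 to 9.995. Its values were 9.30, 9.46 and 9.80 with CAS, 9.37, 9.63 and 9.92 with SBM, 9.995, 9.88 and 9.58 with SDPP and 9.77, 9.57 and 9.49 with YMW. In each source, the array that was highest for Rrm2 was the lowest of its group for Rrm1, and the reverse. The log2 fold changes of Rrm2 were −0.18, −0.06, 0.12 and −0.09 (SE 0.15). Without MC replicate 1 they were −0.22, −0.11, 0.07 and −0.13, and those of Rrm1 were 0.81, 0.86, 0.68 and 0.81. Against that array alone, Rrm1 had −0.16, −0.11, −0.29 and −0.15.

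Among the genes of the entry into S phase and of chromatin, E2f1, a transcription factor of this step, had log2 fold changes of 0.07, 0.20, 0.14 and 0.34 (SE 0.18). Ccne1, the cyclin that acts with Cdk2 at the start of the S phase, had −0.18, −0.01, −0.05 and −0.07 (SE 0.11). Chaf1a, the large subunit of the factor that places new histones behind the fork, had 0.25, 0.39, 0.38 and 0.35 (SE 0.18). Slbp, which binds the stem-loop of histone mRNAs, had −0.24, −0.05, −0.15 and −0.13 (SE 0.11). All 3 CAS arrays of Slbp (7.85, 7.79 and 7.68) lay below the MC arrays (8.12, 8.07 and 7.88), but its fold change was small (unadjusted p = 0.0515 from limma). This held for 1 of the 40 genes with CAS and for 1429 of all 18820 genes, so nothing is read from it. A second probe set of Slbp had 0.03, 0.06, −0.11 and 0.01. With MC replicates 2 and 3 as the control, E2f1 had 0.14, 0.27, 0.21 and 0.41, Ccne1 −0.08, 0.10, 0.05 and 0.04, Chaf1a 0.43, 0.57, 0.56 and 0.53 and Slbp −0.20, −0.01, −0.11 and −0.08.

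No test told the 4 sources apart in these genes, which with 3 arrays for each source does not show that they are alike. Compared with the mean of the other 3 sources, 0 of 40 genes passed the study's threshold with any source, where 0.159%, 0.0266%, 0.0159% and 0.0691% of all genes did with CAS, SBM, SDPP and YMW. In the F test of limma among the 4 source means, 0 of 40 genes had an unadjusted p under 0.05 and none an adjusted one, where 4.56% and 0.0425% of all genes did. Against shares this small, and for genes that vary together, nothing is read from counts of 0. The order of the means was uneven, with the highest mean with SBM in 23 genes, with YMW in 16, with SDPP in 1 and with CAS in 0. The lowest was with CAS in 20 genes, with SDPP in 18 and with YMW in 2. No test compared neighbours in this order, since the F test takes the 4 source means at once. The SD between arrays of a source was larger than the SD of the 4 source means in 38 of the 40 genes, and in 88.9% of all genes. Counts of the highest and lowest source are not given for all genes, and the genes vary together, so nothing is read from this order. Rfc2, a subunit of the clamp loader, had the smallest p of the F test (unadjusted p = 0.153 from limma). Its log2 intensity was 7.73, 7.56 and 7.20 in the MC, 7.77, 7.67 and 7.50 with CAS, 8.09, 7.62 and 7.67 with SBM, 7.51, 7.45 and 7.67 with SDPP and 7.82, 7.83 and 7.93 with YMW. The YMW arrays lay above all other treated arrays except SBM replicate 1. Uhrf1, which guides DNA methylation onto new strands, followed with an unadjusted p = 0.216 from limma, with 8.53, 8.01 and 7.77 in the MC, 8.22, 8.12 and 7.99 with CAS, 8.31, 8.38 and 8.33 with SBM, 7.92, 8.20 and 8.40 with SDPP and 8.50, 8.32 and 8.45 with YMW. Its SBM and YMW arrays lay above the CAS arrays, and the SDPP arrays ran from below the CAS arrays to above the SBM arrays. Cdt1, with an unadjusted p = 0.272 from limma, came next.

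Within a source, single arrays were high or low for most of these genes. CAS replicate 3 was the lowest of its group in 35 of 40 genes, SBM replicate 1 the highest in 33, SDPP replicate 3 the highest in 38 and YMW replicate 1 the lowest in 30. SBM replicate 1 was the highest of all 15 arrays in 16 genes. As a description over the 12 treated arrays, after the mean of each source was taken away, 32 of the 40 genes had a correlation above 0.7 with the mean of the other 39 genes, with a median of 0.85. Over all 15 arrays, 35 genes did and the median was 0.90. The same counts and correlations are not given for all genes or for other lists, so they are not read as particular to these genes. All genes of an array share its normalization and the mix of cells in its sample. The genes most like the mean over the 15 arrays were Mcm4 (0.97), Mcm3 (0.97) and Mcm7 (0.97). Rrm2 alone went against it, with −0.96 over the treated arrays and −0.58 over all arrays, and Pcna had 0.17 and 0.11.

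Other genes of replication and of the step from G1 to S were read from a list of 82, of which 77 were measured, all above background. At the study's threshold 0, 3, 1 and 4 of them were higher and 1, 1, 1 and 1 lower with CAS, SBM, SDPP and YMW. The shares of all genes given above come to less than 2 of 77 genes in each direction, so the counts differ from the background by a few genes at most, and nothing is read from them. Against MC replicates 2 and 3 the counts were 12, 13, 9 and 16 higher and 3, 3, 2 and 2 lower, and against MC replicate 1 alone 0 were higher and 1, 0, 1 and 0 lower, with the same limits as above. Of the genes that license and fire origins, Mcm8, a helicase related to the ring, had log2 fold changes of 0.44, 0.77, 0.58 and 0.74, and passed with SBM and YMW. Ticrr, which helps to fire origins, had 0.51, 0.60, 0.44 and 0.61 and passed with the same sources. At the fork, Rnaseh2a, the catalytic subunit of the enzyme that removes ribonucleotides from DNA, rose with YMW (0.60), and Pold4, the smallest subunit of polymerase delta, fell with CAS (−0.61) and SBM (−0.85). Asf1b, a histone chaperone, rose with SBM (0.59). Among the brakes on the step, Cdkn2b, an inhibitor of Cdk4 and Cdk6, fell with SDPP (−0.60) and YMW (−0.66), whereas Cdkn2d, of the same family, rose with both (0.66 and 0.72). None of the further genes of nucleotide supply passed, and the largest mean was that of Cad, an enzyme of pyrimidine synthesis, with 0.22, 0.41, 0.28 and 0.32. None of the drivers of the step passed either. The largest was Ccna2, the cyclin of the S and G2 phases, with 0.55, 0.58, 0.52 and 0.51, while Cdc25a, a phosphatase that activates cyclin-dependent kinases, had −0.46, −0.31, −0.23 and −0.44. Cdc25a with CAS was the 1 gene of this list with an adjusted p under 0.05, although it fell short of the fold. Without MC replicate 1, Mcm8 had 0.79, 1.11, 0.92 and 1.08, Ticrr 0.89, 0.98, 0.83 and 1.00, Pold4 −0.94, −1.18, −0.87 and −0.86, Cdkn2b −0.84, −0.82, −0.91 and −0.97 and Cdc25a −0.51, −0.37, −0.29 and −0.50. Against that array alone, Mcm8 had −0.24, 0.09, −0.11 and 0.06, Ticrr −0.27, −0.18, −0.34 and −0.16, Pold4 0.05, −0.19, 0.12 and 0.13, Cdkn2b 0.09, 0.11, 0.02 and −0.04 and Cdc25a −0.34, −0.20, −0.12 and −0.33. Of these 5 genes, Cdc25a alone kept its direction against the MC with all 4 sources. The other genes past the threshold stayed above 0 against MC replicate 1 alone with the sources where they had passed, at smaller values. Rnaseh2a had 0.19 with YMW, Asf1b 0.10 with SBM, and Cdkn2d 0.13 with SDPP and 0.19 with YMW.

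Markers of cell state moved across the same arrays. The mean log2 intensity of 17 genes active in G2 and mitosis was 8.65, 7.68 and 7.23 in MC replicates 1, 2 and 3, and between 8.30 and 8.66 on the treated arrays. At the study's threshold 13, 12, 11 and 8 of these 17 genes were higher with the 4 sources, and their median log2 fold change was 0.69, 0.71, 0.66 and 0.57. Of all genes, 1.82%, 1.37%, 1.13% and 1.74% were higher at this threshold. Of 12 markers of crypt base stem cells 5, 3, 3 and 4 were higher, with means of 8.72, 7.96 and 7.53 in the MC and 8.42 to 8.85 on the treated arrays. Absorptive enterocyte markers, 15 in number, had the opposite pattern, with means of 8.86, 10.65 and 10.68 in the MC and 8.64 to 10.26 on the treated arrays, and 0, 0, 0 and 0 were higher and 3, 6, 1 and 4 lower. Of all genes, 2.04%, 2.14%, 0.499% and 2.13% were lower at this threshold. Among the treated arrays, those low for the replication genes in their group, such as CAS replicate 3 (7.53) and SDPP replicate 1 (7.55), had the highest enterocyte means of their group (9.81 and 10.26). Without MC replicate 1, all 17 genes of G2 and mitosis were higher with every source, 6, 7, 5 and 6 stem cell markers were higher and 13, 13, 9 and 13 enterocyte markers were lower. Of all genes, 4.59%, 4.5%, 3.89% and 4.93% were higher in that comparison, and the share that was lower is not given. The array left out was singled out by its values on the replication genes, so these counts are a description. Against that array alone, 0 genes of these lists passed in those directions. The part of the mix of cells in the results above was not tested. Markers of fibroblasts had means between 3.91 and 4.15 on all arrays and those of blood and vessel cells between 3.87 and 4.13, with the background at 3.91. Of these, 6 of 10 fibroblast markers had a mean above background, among them Col1a1 (5.22), Col1a2 (4.98) and Col3a1 (4.91), and 2 of 8 markers of blood and vessel cells, among them Cd68 (6.12). Pdgfra (3.56), Ptprc (3.60) and Pecam1 (3.82) were below it. General markers of epithelium were all above background, with means between 10.80 and 11.11.

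**Figure D4:**
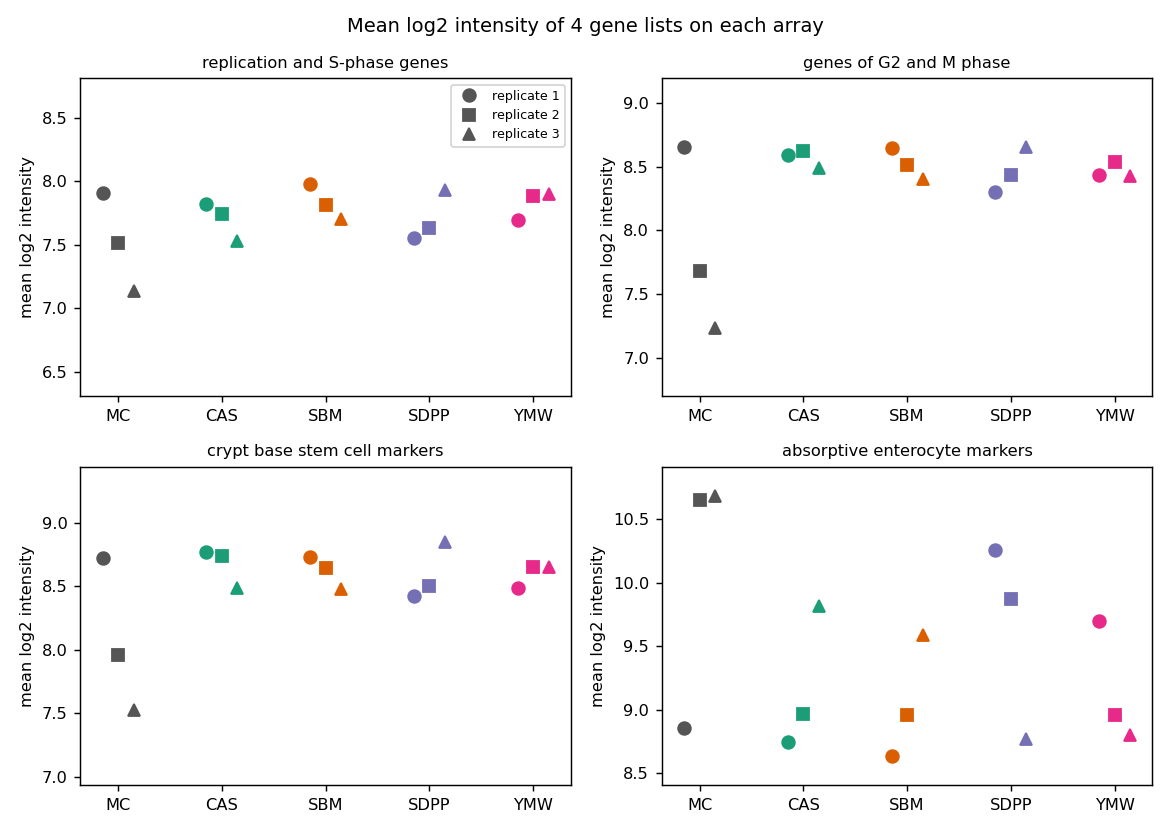
Mean log2 intensity of 4 gene lists on each of the 15 arrays, with a point per array, on axes of equal height. MC replicate 1 lies with the treated arrays in all 4 panels, while MC replicates 2 and 3 lie below them for replication, G2 and M phase and stem cell genes and above them for enterocyte markers.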

How the data were processed

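RNA of 15 monolayer samples, 3 in each of 5 groups named by the labels, was measured on Affymetrix mouse gene 1.1 ST arrays. The intensity values were deposited by the authors on a linear scale from 3.02 to 10739.1 after RMA, which corrects background, quantile normalizes arrays and summarises probes (version not given in the sources used here). Quantile normalization acts on the probes before they are summarised, so a shift of most genes could be partly lost, and the array medians of the deposited values still lay between 21.68 and 24.14. Arrays give no counts, and their number limits the precision. Log2 was taken before the fit, since the design had assumed values on that scale.

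Of 35556 probe sets, 21218 had 1 symbol in the platform annotation, 1881 had several and 12457 had none. The highest-mean probe set was kept for each of 18820 genes. Background was set at the 95th percentile of the 1155 receptor genes of smell and the vomeronasal organ (log2 3.91), and 12879 genes had a mean above it.

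Limma 3.58.1 in R 4.3.3 fitted the 5 group means to all arrays with a trend in the variance, and was tested on simulated data. Contrasts set each source against the MC and against the 3 others, all sources averaged against the MC, and an F test compared the 4 source means. The study's threshold asks for a fold change of 1.5 or more with an unadjusted p under 0.05, and adjusted p are Benjamini-Hochberg over all genes. The 44 genes, the other lists and the tests were chosen with earlier results of these data known. Values on every array are given for genes past the threshold and the 3 genes with the smallest p of the F test, and log2 fold changes for the largest and smallest mean of each role. From each other list those past the threshold are named, or otherwise the largest. Gins4, Orc6, Cdc6, Pold1, Rrm1 and Cdc25a, the array values of Mcm7, Lig1, Rrm1, Rrm2, Pcna and Slbp, and the genes whose groups did not overlap were chosen after their values were seen. Alternatives were 1 prior variance, the replicate number as a block, a fit of the 2 groups compared, the genes above background, quantile normalization a second time, median-centred arrays, array weights (gene by gene, since the REML fit did not converge), the mean of all probe sets, MC replicate 1 as the only control, the adjusted p as the threshold and the omission of each array.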

Additional observations from a re-analysis of the deposited data

How the results depend on the processing

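With MC replicate 1 as the only control, the medians turned to −0.182, −0.085, −0.228 and −0.103 (CAS, SBM, SDPP and YMW), and the counts of higher genes were 0, 0, 0, 0 and, for the mean of the sources, 0. Gins1 then had −0.217, −0.161, −0.396 and −0.365, Pole −0.200, −0.187, −0.286 and −0.117, and Tk1 −0.084 with CAS. The counts of higher genes (1, 3, 1, 2 and 2 as reported) became 0, 1, 0 and 1 in fits of the 2 groups compared, 4, 6, 2, 7 and 5 with array weights, which were lowest for MC replicate 1 (0.243), and 0 in all 5 with the adjusted p. They were 0 for CAS and 1 for the mean of the sources after a second quantile normalization, 0 for CAS and SDPP and 1 for the mean of the sources with centred arrays, and 0 for SDPP and 1 for the mean of the sources with the mean of all probe sets. Leaving out 1 array gave counts between 0 and 7 with CAS, 0 and 14 with SBM, 0 and 8 with SDPP, 0 and 12 with YMW and 0 and 9 for the mean of the sources, with 0 without MC replicate 3 and the highest without MC replicate 1. Without CAS replicate 1 or 2 the CAS count was 0, without SBM replicate 3 the SBM count was 6, and without SBM replicate 1 or 2 it was 1. It was 0 for SDPP without SDPP replicate 3, and 3 for YMW without YMW replicate 1. The medians lay between −0.015 and 0.365, 0.119 and 0.523, 0.012 and 0.381, and 0.122 and 0.516. The counts above 0 lay between 19 and 36, 33 and 39, 24 and 38, and 32 and 36. The counts of lower genes and of genes that differed among the sources were 0 in every alternative run. The cause of these shifts was not tested.

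Of 30 same-numbered pairs, 9 had a correlation over 0.1, and 2 of 15 arrays were most like an array of their own number. These values showed no clear pairing by replicate number. With so few arrays in each group, they cannot decide whether arrays of the same number came from the same animal. With the replicate number as a block, the counts were 1, 2, 1, 2 and 2, and the lost call was Gins1 with SBM, which was also lost in a fit of SBM and MC alone, with the genes above background alone and without most single arrays.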

Other observations

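Some values belong to no comparison above. Rrm2 was the 1 gene of the 40 that was low on the treated arrays where the mean of the others was high, and its highest values, 9.995 in SDPP replicate 1 and 9.92 in SBM replicate 3, stood on arrays with enterocyte means of 10.26 and 9.59. Its probe set is the only one of this symbol, so no second measurement was at hand. The 2 probe sets of Pcna had the same mean log2 intensity of 10.89 and the same range, 10.85 to 10.98, so the second may not be a separate measurement. So even a level for a gene of the S phase stands out beside Mcm2, whose arrays ran from 8.16 to 9.23. A second probe set of Fen1, with a mean of 5.32 against 7.58, had log2 fold changes of 0.00, 0.04, −0.01 and 0.04 where the one kept had 0.12, 0.30, 0.23 and 0.26.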
